A study of Caenorhabditis elegans with 2 samples.

Results

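Autophagy genes and genes for the vacuolar proton pump (V-ATPase) were examined for binding by NFYA-1, the DNA-contacting A subunit of the NF-Y complex, in late embryos of Caenorhabditis elegans. The members were 25 named autophagy genes, together with the 20 protein-coding genes whose names are vha followed by a number and the gene unc-32, which make up 21 V-ATPase genes, so 46 genes of 19973 nuclear protein-coding genes were followed. Whole hermaphrodite embryos of strain OP404, of genotype unc-119(tm4063) III; wgIs404, were used; the strain carries a transgene for NFYA-1 with a GFP-FLAG tag at its C terminus, and chromatin was precipitated with an antibody against GFP, per the labels' descriptions, whereas their antibody field names nfya-1. There was 1 group with 2 biological replicates and no second condition, so the results are positions, ranks and counts. Whole embryos mix all cell types, so a peak cannot be given to a tissue, and lists from worms without the tag were not analysed here.

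Autophagy encloses cytoplasm in a double membrane, the autophagosome, and delivers it to lysosomes, which the V-ATPase keeps acidic by pumping protons. The pump has a cytosolic V1 sector that hydrolyses ATP and a membrane V0 sector that carries protons. In worm embryos autophagy clears paternal mitochondria and maternally supplied germ granule proteins from somatic cells. NF-Y is a 3-subunit factor that binds the CCAAT box.

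The authors' list of regions that passed their reproducibility threshold, called the peak list here, held 4098 regions, of which 4084 lay on nuclear chromosomes. Each region has a signal value, which is the authors' own and ran from 58.2 to 9543 in the peak list; it was used to rank regions within 1 list only. Ranks in the replicate lists are not independent of the peak list, which was made from the same libraries. There were 21476 regions in the list of replicate 1 and 28596 in that of replicate 2, background regions included. Read depth is unknown, because the lists carry no read counts.

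A gene was called bound when a peak's summit, its highest point, fell in a window that began 500 bp upstream and ended 100 bp downstream of any start of its protein-coding transcripts. By this rule 11 of the 25 autophagy genes (44.0%) and 9 of the 21 V-ATPase genes (42.9%) were bound, against 2233 of all 19973 coding genes (11.2%). Bound genes were found in 5 of 6 autophagy roles and in both sectors of the pump. In the V1 sector 6 of 9 genes were bound and in the V0 sector 3 of 10. A gene with more starts has more places where a summit can fall, and 14 of the 25 autophagy genes had 2 or more starts. Among genes with 1 start, 4 of 11 autophagy genes (36.4%) and 7 of 17 V-ATPase genes (41.2%) were bound, against 1305 of 14723 of all coding genes (8.86%). The lists were drawn up with earlier results of these data known, and these shares are given as descriptions without a test.

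**Figure D1:**
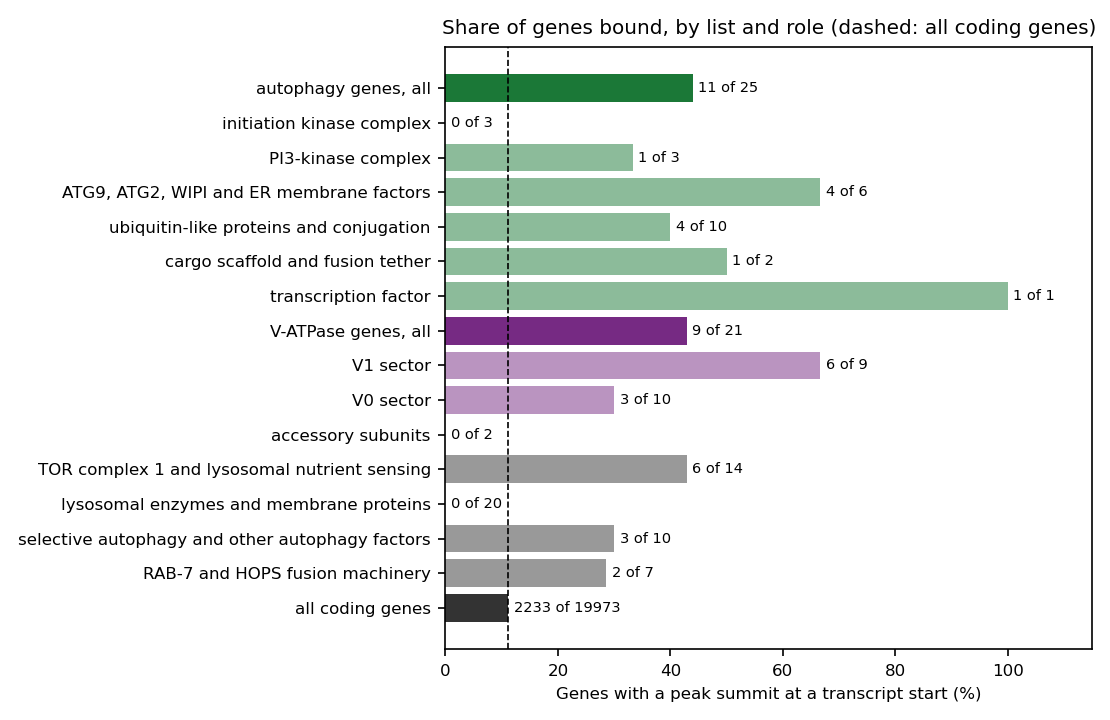
Bars give the percentage of genes in each list or role with a peak summit at a transcript start, and the text beside each bar gives the counts; autophagy is in green, V-ATPase in purple, related lists in grey and all coding genes in black. The autophagy and V-ATPase bars reach 44.0% and 42.9%, against 11.2% for all coding genes, and the bar of lysosomal enzymes and membrane proteins is at 0 of 20.

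Among the 25 autophagy genes the strongest peak was that of lgg-2, an Atg8 homologue of the LC3 type that is coupled to lipid on the growing membrane. Its upstream peak (signal 253, rank 500 of 4098, summit at IV:10936168) lay 265 bp upstream of the first start. It had a signal of 135.0 and rank 509 in the replicate 1 list and a signal of 120.9 and rank 508 in the replicate 2 list. A weaker peak of lgg-2 (signal 109, rank 2051, summit at IV:10935516) lay in its own intron, 477 bp upstream of the start of the shorter transcript. The other Atg8 homologue, lgg-1, of the GABARAP type, was bound at a lower rank (signal 91.8, rank 2491), and its rank differed more between replicates, at 1784 in replicate 1 and 3838 in replicate 2. Both Atg8 genes were thus bound, with lgg-2 the stronger in each list.

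Of the enzymes that couple Atg8 proteins to lipid, the genes for the scaffold protein ATG16 were bound and the others were not. The 2 worm copies, atg-16.1 (signal 70.5, rank 3383) and atg-16.2 (signal 89.9, rank 2552), had summits 116 and 209 bp upstream of their starts. The atg-16.1 region ranked 3654 in replicate 1 and 3363 in replicate 2, and the atg-16.2 region ranked 3726 in replicate 1 and 1958 in replicate 2, all among the strongest 4098. No summit lay at the starts of atg-7, which activates the Atg8 proteins, of atg-3 and atg-10, which conjugate them or their relatives, of atg-5, the partner of ATG16, or of the proteases atg-4.1 and atg-4.2. In this role 4 of 10 genes were bound, lgg-1 and lgg-2 included, against 11.2% of all coding genes.

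Genes for membrane supply and lipid transfer were bound in 4 of 6 cases, also too few to set against the 11.2% of all coding genes. All 6 had 2 or more starts, and 17.7% of all coding genes with 2 or more starts were bound. The gene atg-9, which encodes the transmembrane lipid scramblase carried on vesicles, had a peak at each of its 2 starts. The stronger one (signal 139, rank 1435, summit at V:357511) lay in an intron, 131 bp upstream of the internal start, and the other (signal 115.5, rank 1882, summit at V:349243) 142 bp upstream of the first start. In replicate 1 these peaks ranked 1590 and 2627, and in replicate 2 they ranked 1217 and 1538, so the internal one was the stronger in both. The gene atg-18, which encodes a WIPI-type reader of phosphatidylinositol 3-phosphate, had a signal of 148 and rank 1299, with rank 1877 in replicate 1 and 957 in replicate 2. Its paralogue epg-6 (signal 65.4, rank 3650) and the lipid transfer gene atg-2 (signal 67.9, rank 3517) lay lower. Their replicate 1 regions ranked 2926 and 2918, while their replicate 2 regions ranked 4745 and 4730 and so fell below the strongest 4098. The genes epg-3 and epg-4, for endoplasmic reticulum membrane proteins related to VMP1 and EI24, were not bound.

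Of the 6 listed genes of the initiating kinase and PI3-kinase complexes 1 was bound, too few to set against the 11.2% of all coding genes. None of the 3 genes of the initiating kinase complex, unc-51, atg-13 and epg-9, was bound. In the PI3-kinase complex epg-8, the ATG14 counterpart, was bound in the peak list's weakest member peak (signal 58.2, rank 4092), while vps-34, the lipid kinase, and bec-1, the Beclin homologue, were not. That peak ranked 4849 in replicate 1 and 4047 in replicate 2. The gene epg-2, which encodes a scaffold that brings germ granule proteins to autophagosomes, was bound (signal 135, rank 1512, ranks 1218 and 1854 in replicates 1 and 2), and the summit lay 292 bp upstream of its start, in an intron of tpxl-1. The gene epg-5, for a tether of autophagosomes and late endosomes, was not.

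The gene hlh-30, which encodes the worm counterpart of TFEB, a regulator of autophagy and lysosome genes, was bound at 1 of its 10 starts. The peak (signal 63.1, rank 3783, summit at IV:4028338) lay in an intron, 211 bp upstream of the internal start at IV:4028127. It had signals of 27.0 and 25.7 and ranks of 5079 and 4676 in replicates 1 and 2, so the regions at this summit stood below the strongest 4098 of each. Another of the 3 replicate 1 regions in the hlh-30 windows ranked 3088 (signal 41.3), while the best of the 4 in replicate 2 was the one at this summit. With replicate 1 alone hlh-30 was thus still bound, through a different region.

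V1 genes held most of the bound V-ATPase starts with the main window. With the window of 250 bp upstream and 50 bp downstream, neither sector held more of them. The bound pump genes were then vha-9 and vha-14 of V1 and unc-32 and vha-16 of V0. The strongest member peak of either list was at vha-8, which encodes the E subunit of the peripheral stalk (signal 404, rank 171, summit at IV:6790611), with a signal of 213 and rank 183 in replicate 1 and a signal of 193 and rank 170 in replicate 2. The summit lay 463 bp upstream of vha-8 and 123 bp upstream of a start of C17H12.2, so the peak lies in a region upstream of both genes. When each peak was given to its nearest start alone, or with the window of 250 bp upstream and 50 bp downstream, vha-8 was not bound. The gene vha-12, for the nucleotide-binding B subunit, had a signal of 239.9 and rank 573, with ranks of 627 and 511 in the replicates. The gene vha-15, for the H subunit, had a signal of 229.8 and rank 617, with ranks of 588 and 700. Lower were vha-9 for the F subunit (signal 111, rank 1997, ranks 2212 and 1570 in the replicates), vha-14 for the D subunit of the rotor (signal 93.0, rank 2451, ranks 2428 and 2491) and vha-10 for the G subunit (signal 63.4, rank 3771). The vha-10 region ranked 3825 in replicate 1 and 4769 in replicate 2, and its summit lay in an intron of trpp-8. The gene vha-13, for the catalytic A subunit, was not bound, but the nearest summit (signal 134, rank 1531, at V:14351183) lay 526 bp upstream of its start, just beyond the window, in an untranslated exon of cept-2. The C subunit gene vha-11 and the second H subunit gene, vha-18, had their nearest summits 2.47 and 3.99 kb away.

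In the V0 sector 3 of 10 genes were bound. The gene vha-1, for a proteolipid of the rotating ring, was the strongest (signal 212, rank 723, ranks 809 and 656 in replicates 1 and 2), and its summit was 449 bp upstream of the vha-1 start and 451 bp upstream of a start of sqv-3, a galactosyltransferase gene. The gene vha-2, for another ring proteolipid, starts 400 bp after the end of vha-1 on the same strand and had no summit of its own in the window. Among the 4 genes for the large a subunit, unc-32, known for its role in the nervous system, was bound (signal 95.5, rank 2362, ranks 2170 and 2794 in the replicates). The other 3, vha-5, vha-6 and vha-7, which are known for epidermal, excretory and intestinal roles, were not, with nearest summits 14.2, 14.8 and 7.55 kb from a start. The gene vha-16, for the d subunit, was bound (signal 90.9, rank 2522, ranks 2303 and 3437 in the replicates). The ring proteolipid genes vha-3 and vha-4 and the e subunit gene vha-17 were not. Neither accessory subunit gene was bound, with nearest summits 15.6 kb from vha-19 and 5.37 kb from vha-20.

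**Figure D2:**
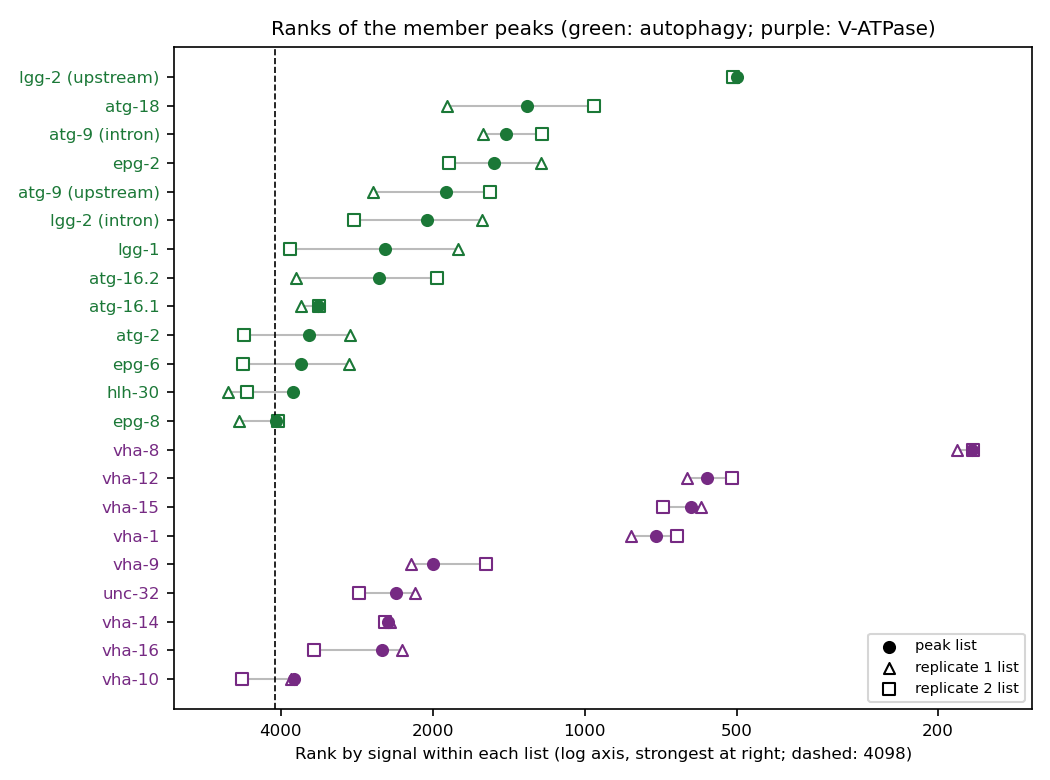
Each row is 1 of the 22 member peaks, and the points give its rank by signal in the peak list (filled circle), in the replicate 1 list (triangle) and in the replicate 2 list (square), on a log axis with the strongest regions at the right. The peak of vha-8 lies farthest right at ranks 170 to 183, and 5 peaks, those of atg-2, epg-6, hlh-30, epg-8 and vha-10, have a replicate region left of the dashed line at 4098.

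The 20 bound genes had 22 peaks between them, and the summit of every one lay inside a region of each replicate's list. That was largely set in advance, because the peak list was made from the same libraries and the replicate lists are long. Of the 13 autophagy peaks, 11 were among the strongest 4098 regions of replicate 1 and 10 among those of replicate 2. Of the 9 V-ATPase peaks, 9 and 8 were. The shares over all peaks of the list were not counted, so these counts do not set the members apart from other peaks. In 39 of the 44 comparisons the replicate's summit lay within 35 bp of that in the peak list, and the widest shift was 149 bp, for atg-2 in replicate 2. Such shifts were also not counted over all peaks of the list. The strongest peak of each bound gene had a median signal of 89.9 over the autophagy genes and 111 over the V-ATPase genes, against 109.8 over all bound coding genes. The median autophagy peak was thus weaker than that of all bound coding genes, and the median V-ATPase peak was close to it. Shared peaks were few, at 0 of 11 bound autophagy genes and 2 of 9 bound V-ATPase genes, against 923 of 2233 bound coding genes (41.3%).

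All 22 summits lay upstream of the start they were given to. The window itself favours that side, as it reached 500 bp upstream and only 100 bp downstream. The share of upstream summits over all bound coding genes was not counted. Between coding genes lay 16 of the 22 member summits, 4 were in introns of the gene itself (atg-9, lgg-2, epg-6 and hlh-30) and 2 were in introns of a neighbour. These places were not counted over all peaks at coding promoters, so the counts do not set the members apart. The strongest summit of each gene lay at a median of 202 bp upstream for the autophagy genes and 288 bp upstream for the V-ATPase genes, against 192 bp for all bound coding genes. Of the V-ATPase summits, 5 of 9 were more than 250 bp upstream, at vha-8, vha-10, vha-1, vha-12 and vha-15. The share of such summits over all bound coding genes was not counted. With the window of 250 bp upstream and 50 bp downstream, the bound coding genes fell from 2233 to 1455. Many worm transcripts are trans-spliced, so that an annotated start can lie downstream of the site where transcription begins. Whether this applies to these genes was not tested.

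**Figure D3:**
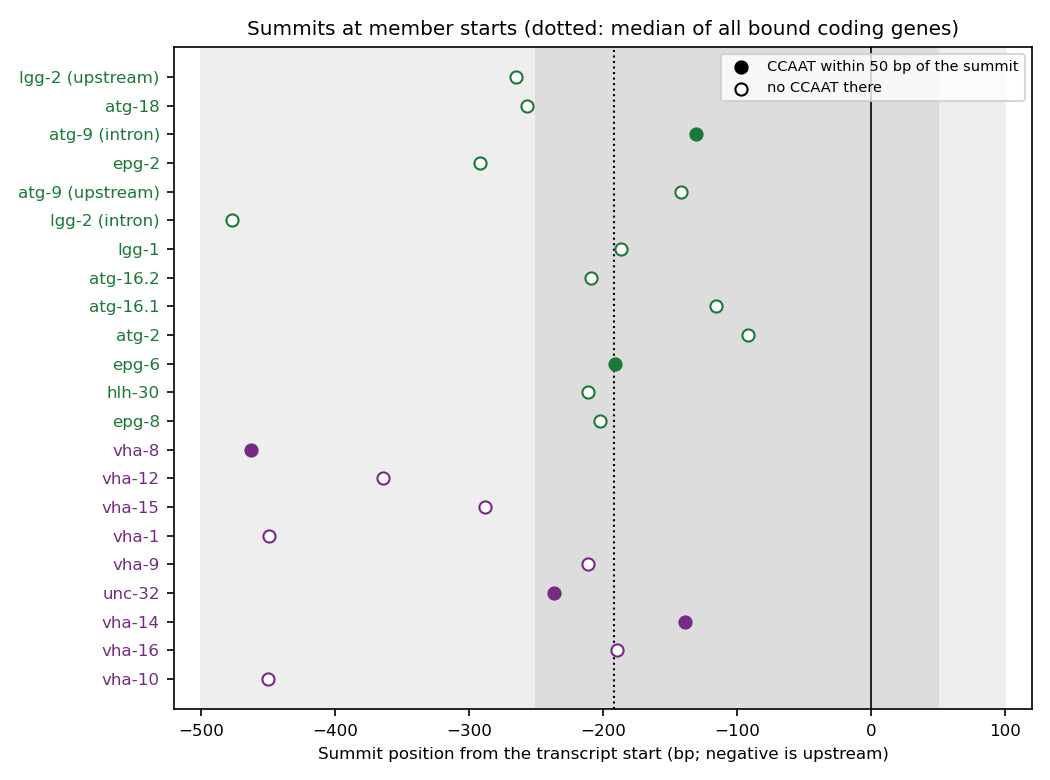
Each row is a member peak, placed at the distance in bp of its summit from the transcript start, with negative values upstream; the light grey band is the window of 500 bp upstream to 100 bp downstream and the darker band that of 250 bp upstream to 50 bp downstream. Filled points have a CCAAT box within 50 bp of the summit, the dotted line marks the median of all bound coding genes at 192 bp upstream, and 9 summits lie more than 250 bp upstream.

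The CCAAT box stood within 50 bp of a summit in 2 of the 11 bound autophagy genes (18.2%) and 3 of the 9 bound V-ATPase genes (33.3%), against 446 of 2233 bound coding genes (20.0%). By peaks, it stood in 369 of all 1812 peaks at coding promoters (20.4%). Windows of 101 bp centred 192 bp upstream of the first start of genes not bound held it about as often, in 3263 of 17740 (18.4%). The members with a box there were atg-9, epg-6, vha-14, vha-8 and unc-32. Their windows of 101 bp around the summit are given here because they are the members whose peaks hold the letters that NF-Y binds. All are from the RefSeq copy of WBcel235 and written 5′ to 3′ on the strand of the gene, with CCAAT, or ATTGG where the box is on the other strand, in capitals.
atg-9 internal start, chrV:357461-357561, plus strand: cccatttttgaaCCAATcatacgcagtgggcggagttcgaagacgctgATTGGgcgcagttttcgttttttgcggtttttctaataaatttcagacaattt
epg-6, chrIII:10599797-10599897, minus strand: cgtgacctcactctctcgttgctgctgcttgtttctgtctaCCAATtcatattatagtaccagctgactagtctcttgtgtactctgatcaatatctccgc
vha-14, chrIII:9507911-9508011, plus strand: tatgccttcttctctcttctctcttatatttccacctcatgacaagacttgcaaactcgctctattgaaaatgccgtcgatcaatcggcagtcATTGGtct
vha-8, chrIV:6790561-6790661, plus strand: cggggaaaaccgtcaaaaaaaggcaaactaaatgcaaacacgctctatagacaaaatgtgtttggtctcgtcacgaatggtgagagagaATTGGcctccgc
unc-32, chrIII:8905328-8905428, plus strand: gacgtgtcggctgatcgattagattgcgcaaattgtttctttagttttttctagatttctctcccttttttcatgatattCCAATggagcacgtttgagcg

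The internal atg-9 peak held a pair of boxes on opposite strands, 36 bp apart, 1 of them at the summit. In epg-6 the middle of the box lay 7 bp upstream of the summit. In vha-14, vha-8 and unc-32 it lay 45, 41 and 32 bp downstream of the summit, on the side of the start. Within 25 bp of the summit, atg-9 and epg-6 had a box and 0 of the 9 V-ATPase genes did, against 245 of 2233 bound coding genes (11.0%).

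**Figure D4:**
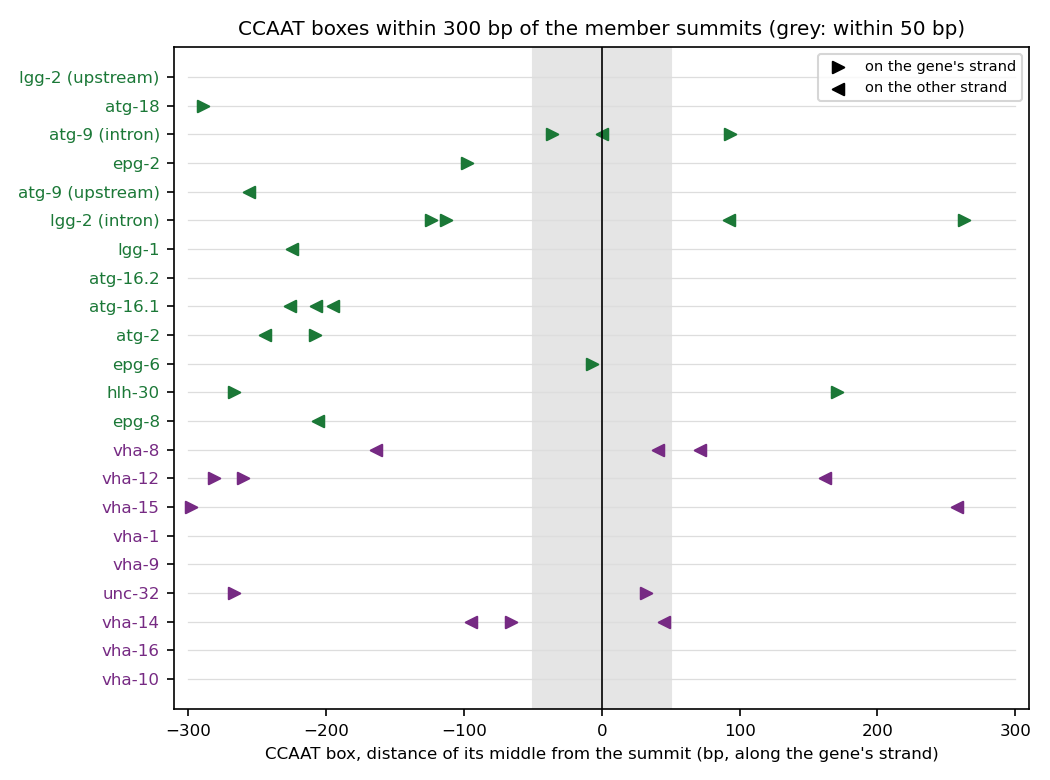
Triangles mark every CCAAT box within 300 bp of the 22 member summits, by the distance in bp of the middle of the box from the summit along the gene's strand, and point right for a box on the gene's strand and left for one on the other. Only atg-9, epg-6, vha-8, unc-32 and vha-14 have a triangle in the grey band of 50 bp to each side, and the internal atg-9 peak has 1 at the summit itself.

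CCAAT stood near the summit in 5 of the 22 member peaks, and CTCTC or its complement GAGAG in 16. The peaks of epg-6, vha-14, vha-8 and unc-32 held both. In windows of 101 bp, CTCTC on either strand was found in 9 of 13 autophagy peaks (69.2%) and 7 of 9 V-ATPase peaks (77.8%), against 748 of all 1812 peaks at coding promoters (41.3%). Windows of the same length centred 192 bp upstream of the first start of genes that were not bound held it in 14.3% of cases. These shares are descriptions without a test. Some windows held many copies of CTCTC or GAGAG, with 9 matches at epg-2 and 7 at atg-2. CGCGC was found in 5 of 13 and 3 of 9 peaks, against 35.2% of all peaks at coding promoters and 4.63% of the windows at genes not bound. CACGTG, the core of the sites that HLH-30 and its relatives recognise, was found in 1 of 13 autophagy peaks, the upstream peak of atg-9, and in 0 of 9 V-ATPase peaks, against 3.04% of all peaks at coding promoters and 1.61% of the windows at genes not bound. The strongest autophagy peak, that of lgg-2, and the strongest V-ATPase peak with no CCAAT near its summit, that of vha-12, are shown with CTCTC or GAGAG in capitals, as examples of such windows.
lgg-2 upstream peak, chrIV:10936118-10936218, minus strand: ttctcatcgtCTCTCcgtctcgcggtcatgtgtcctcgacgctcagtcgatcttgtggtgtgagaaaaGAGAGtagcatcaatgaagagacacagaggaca
vha-12, chrX:4190680-4190780, plus strand: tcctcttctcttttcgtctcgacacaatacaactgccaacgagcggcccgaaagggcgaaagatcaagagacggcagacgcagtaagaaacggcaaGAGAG

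A longer run of letters recurred in peaks of both lists. GCTCTATNG, where N is any base, was picked after these windows were read, and so its counts are a description. It stood within 50 bp of the summit, on either strand, in 4 of the 22 member peaks: the upstream peak of atg-9, and the peaks of atg-16.1, vha-14 and vha-8. It was found in 48 of all 1812 peaks at coding promoters (2.65%) and in 31 of 17740 windows at genes not bound (0.175%). Where N is T, a copy followed by G would share bases with a CCAAT box on the other strand; none of the 4 copies was followed by G. The copies are lined up below on the strand that reads GCTCTATNG, with that run in capitals; the bases before it were also alike, with tgcaaac in each of the 4.
atg-9 upstream peak, chrV:349229-349279, minus strand: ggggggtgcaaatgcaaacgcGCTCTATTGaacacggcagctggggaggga
atg-16.1, chrX:4462570-4462620, minus strand: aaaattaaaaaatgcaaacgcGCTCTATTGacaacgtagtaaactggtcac
vha-14, chrIII:9507948-9507998, plus strand: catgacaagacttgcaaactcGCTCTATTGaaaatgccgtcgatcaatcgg
vha-8, chrIV:6790581-6790631, plus strand: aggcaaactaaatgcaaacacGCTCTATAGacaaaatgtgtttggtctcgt

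The 26 members that were not bound differed in how close a peak came. The nearest summit lay within 2 kb of a start for 6 of 14 autophagy genes (42.9%) and 3 of 12 V-ATPase genes (25%), against 1952 of 17740 coding genes that were not bound (11.0%). For atg-3 it lay 498 bp downstream of a start (signal 137), in an untranslated exon of rbm-39, and for epg-9 it lay 1036 bp downstream, in its own intron (signal 208). For unc-51 (signal 178) and bec-1 (signal 60.5) it lay 1486 and 1181 bp upstream. The strong peak nearest to atg-7 (signal 423, rank 146) lay 1953 bp upstream of its start, and that nearest to epg-4 (signal 78.6) lay 1945 bp downstream. For vps-34 and atg-10 no summit lay within 27.2 and 55.3 kb, and for atg-4.2, atg-13, atg-4.1 and atg-5 the nearest were 11.7, 5.86, 5.07 and 3.80 kb away. The vha-2 start had the vha-1 summit 1359 bp upstream. The vha-3 start had a summit 1095 bp upstream (signal 76.7), which was also the nearest to vha-11, whose gene starts 892 bp after the end of vha-3 on the same strand.

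The authors' pooled list goes below their threshold and includes background regions. It held a region with its summit in the window for 6 of the 14 autophagy genes that were not bound (42.9%) and 2 of the 12 V-ATPase genes (16.7%), against 2493 of 17740 coding genes that were not bound (14.1%). The highest of these was at epg-4 (signal 48.0, rank 5036 of 15515), followed by vha-2 (45.2, rank 5360), atg-7 (43.1, rank 5643), epg-5 (40.5, rank 6062) and atg-13 (37.8, rank 6585). In the replicate lists, the region at the atg-13 start ranked 3786 in replicate 1 and 9540 in replicate 2, and that at the epg-5 start ranked 9928 in replicate 1 and 4138 in replicate 2. Lower still were atg-4.1 (30.9), epg-3 (26.5) and vha-3 (23.2). For 6 autophagy genes and 6 V-ATPase genes no region of any list, pooled or of either replicate, had its summit in the window: unc-51, vps-34, bec-1, atg-4.2, atg-5 and atg-10, and vha-13, vha-11, vha-18, vha-6, vha-4 and vha-20. The share of all unbound coding genes without any such region was not counted, so this does not set the members apart.

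Related lists set these counts in their pathway. Of 14 genes of TOR complex 1 and nutrient sensing at the lysosome, 6 (42.9%) were bound, against 11.2% of all coding genes: rheb-1, the GTPase that activates TOR (signal 181), aak-2, a catalytic subunit of AMP-activated kinase (175), the folliculin gene flcn-1 (114), the Ragulator gene lmtr-3 (92.3), the Rag GTPase gene ragc-1 (74.9) and the Raptor gene daf-15 (66.5). The peaks of rheb-1, lmtr-3 and ragc-1 were shared with spk-1, atp-5 and Y24F12A.1. The TOR kinase gene let-363 was not bound. Of 10 genes of selective autophagy and other autophagy factors, 3 were bound. These were epg-7, a scaffold of the FIP200 and ATG11 type (signal 283, rank 414), vps-15, the regulatory subunit of the VPS-34 kinase (signal 254, rank 496), and the Parkin gene pdr-1 (123), whose peak was shared with cyk-4. The epg-7 peak had a higher signal than any peak of the 25 autophagy genes. The vps-15 peak was about level with the upstream lgg-2 peak in the peak list (253.6 against 252.8). It ranked 646 in replicate 1 and 446 in replicate 2, against 509 and 508 for that lgg-2 peak. The vps-15 peak lay in its own intron and held 4 CCAAT boxes within 50 bp of the summit. Of 7 genes for RAB-7 and the HOPS tether, vps-39 (81.9) and vps-33.1 (70.6) were bound, and the vps-33.1 peak was shared with sdz-1. The vps-39 region ranked 3067 in replicate 1 and 2804 in replicate 2, while the vps-33.1 region ranked 2071 in replicate 1 and 8214 in replicate 2, below the strongest 4098. Of 20 genes for lysosomal enzymes and membrane proteins, such as the cathepsin L gene cpl-1 and the mucolipin gene cup-5, 0 were bound. An approximate upper limit for a count of 0, 3 divided by the number of genes, is a share of 15%. That limit treats the genes as a random draw, whereas the list was chosen. These 20 genes thus do not by themselves place such genes below the 11.2% of all coding genes.

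The calls of single members depended on the rule. Over 8 other ways of scoring, atg-9 and vha-9 were bound in all, and 12 of the 14 autophagy genes and 11 of the 12 V-ATPase genes that were not bound stayed so in all. Most of these ways could move a call in a single direction. The narrower window, the upper 50% of peaks and nearest starts alone could only remove calls. A wider window, starts of all transcripts and any overlap could only add them. Leaving out a replicate could do both. With a window of 250 bp upstream to 50 bp downstream, 8 autophagy genes (32%) and 4 V-ATPase genes (19%) were bound, against 7.28% of all coding genes; those lost were lgg-2, atg-18 and epg-2, and vha-8, vha-12, vha-15, vha-1 and vha-10. In the upper 50% of peaks by signal, the bound genes were atg-9, atg-18, epg-2 and lgg-2 of the autophagy list (16%) and vha-8, vha-12, vha-15, vha-1 and vha-9 of the pump (23.8%), against 5.69% of all coding genes. With the strongest 4098 regions of replicate 2 alone, atg-2, epg-6, hlh-30 and vha-10 were no longer bound. With those of replicate 1 alone, epg-8 was lost and atg-13 was gained.

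**Figure D5:**
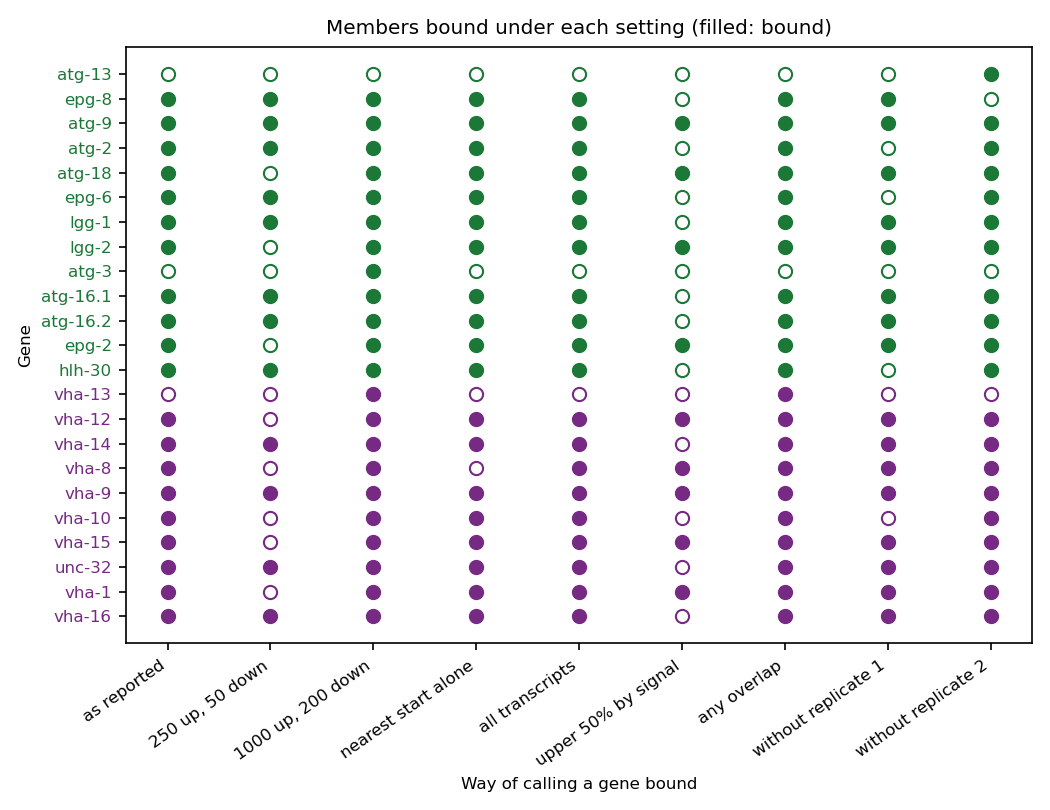
Rows are the members bound under at least 1 of the 9 ways of calling a gene bound, columns are those ways, and a filled point means bound. Only the rows of atg-9 and vha-9 are filled throughout, while atg-13, atg-3 and vha-13 are filled under other ways but not in the first column.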

How the data were processed

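Chromatin immunoprecipitation with sequencing was deposited as narrowPeak region lists for ce10 and for ce11, and the ce11 ones were used. Per the listings deposited with them, lists per replicate and a pooled list hold peaks and background regions as input to a reproducibility analysis (IDR), and the peak list those that passed it. The signal value of each region is as the authors deposited it, and the sources used here do not state its scale, the aligner, the caller or the thresholds. Depth per sample is unknown.

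Coordinates are 1-based, in ce11 (WBcel235). Genes came from Ensembl release 115 (29314 starts of nuclear protein-coding transcripts) and sequence from RefSeq. The summit is the region's start plus the deposited offset. A peak could count for more than 1 gene. To leave out a replicate, the strongest 4098 regions of the other replicate's list took the place of the peak list. A replicate's region was matched to a peak when it held the peak's summit. All motif searches covered both strands. Members, lists, windows and alternatives were chosen with earlier results of these data known; every member and every bound gene of the related lists is named. With 1 group, no test was run. Scoring was tested on simulated data. Python 3.11.15 and matplotlib 3.10.9 were used.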

Additional observations from a re-analysis of the deposited data

How the results depend on the processing

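Counts moved by over 1.5 times under 4 settings. In the upper 50% of peaks by signal, 4 autophagy genes and 5 V-ATPase genes were bound, against 1136 coding genes in all. With the narrow window, 250 bp upstream and 50 bp downstream, 4 V-ATPase genes were bound, against 1455 coding genes, while the autophagy count of 8 stayed within 1.5 times. With CCAAT searched within 100 bp, 4 bound autophagy genes and 759 bound coding genes held it, and within 25 bp, 0 bound V-ATPase genes and 245 bound coding genes did. Leaving out a replicate gave 8 to 11 autophagy genes, 8 to 9 V-ATPase genes and 2105 to 2267 coding genes. The wider window, nearest starts, starts of all transcripts and any overlap gave 11 to 12 autophagy genes and 8 to 10 V-ATPase genes, against 1755 to 2809 coding genes (8.79% to 14.1%); with nearest starts alone, vha-8, the strongest member peak, was lost. The cause was not tested. No paired analysis was possible because there was 1 group. The lists carry no depth, so a weak peak cannot be told apart from a shallow library.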
